A study of Mus musculus with 30 samples.

Results

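The hormonal cocktail MDI was set against the solvent control DMSO in the 3T3-L1 line, mouse preadipocytes that turn into fat cells in culture when given the right signals. The cells were the 6 arrays titled MDI and DMSO, 3 of each, among the 30 arrays of the series, and all 14763 genes with a name were compared. Treatment in both groups began 2 days after the cells had become confluent, in a medium containing foetal bovine serum, and ended with harvest on day 10. The control cells carried 0.1% DMSO. The MDI cells had the cocktail for 48 h, made of dexamethasone (0.25 µM), isobutyl methylxanthine (0.5 mM) and insulin (10 µg/mL). They then had insulin alone, still 10 µg/mL, for 8 days. At harvest the MDI cells were therefore still in insulin and the DMSO cells were not, and the effects of insulin, of the earlier hormones and of fat cell conversion cannot be told apart in this contrast. The labels describe all samples as the same established cell line and call the 3 samples of a group biological replicates, without saying whether they were separate cultures. The p-values therefore measure only the spread between samples of a group, pooled over all 10 groups of the series. That spread may be technical. For some genes MDI is also set against the arrays titled ROSI and TBT, 3 of each. These are the usual abbreviations of rosiglitazone and tributyltin, and the labels used here give no dose of either.

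The cocktail is the textbook route to fat cells. Isobutyl methylxanthine blocks phosphodiesterases and raises cyclic AMP, dexamethasone activates the glucocorticoid receptor, and insulin at this level also acts on the IGF1 receptor. These signals raise the transcription factors C/EBP beta and delta, which switch on PPAR gamma and C/EBP alpha, and those in turn drive the genes for lipid storage, glucose uptake and adipokine release. Preadipocytes are fibroblast-like cells, and their contractile fibres, matrix proteins and autocrine growth factors are known to be reduced as they convert.

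Each array set Cy3-labelled RNA of a sample against Cy5-labelled RNA of a shared reference, pooled from equal aliquots of the controls and the exposed samples. Values below are log2 ratios of sample over reference, the mean over the probes of a gene. The value in brackets after a gene is its log2 fold change, MDI minus DMSO, ± SE, with 3 arrays in each group. Differences were tested with limma over all 30 arrays, so each SE draws on the spread within all 10 groups, not only MDI and DMSO. A gene was called at an adjusted p under 0.05. The number of arrays limits the precision, and signal over background was not used, so whether a dim probe sat near background in DMSO is unknown. The array medians lay between -0.00336 and 0.0132. Arrays of the same group correlated at 0.835 to 0.892 across entries. A DMSO and an MDI array correlated at -0.493 to -0.417, and the group means at -0.512. These are correlations of ratios to a pool that includes both groups, so a negative value does not show opposed expression levels. The deposited ratios are reference over sample, so their sign was turned. The probe fold changes then differed from those in the authors' deposited table by at most 5e-08.

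Fat cell marker genes were higher in the MDI cells. All 10 measured adipocyte markers were called higher, from the hormone Lep (0.67 ± 0.05) and the lipase Lipe (2.32 ± 0.14) up to Fabp4 (4.58 ± 0.13) and Slc2a4 (4.64 ± 0.08). In bulk RNA, fewer cells of a type and less RNA per cell cannot be told apart. Their mean log2 ratio was -2.22 to -1.82 on the DMSO arrays and 1.29 to 1.37 on the MDI arrays. Of 9 fibroblast and myofibroblast markers 6 were lower and 2 higher, with a list mean of 0.09 to 0.13 in DMSO and -0.29 to -0.21 in MDI. Among 7 preadipocyte markers, the zinc finger factor Zfp521 (-0.83 ± 0.07), Gata2 (-0.71 ± 0.17) and the Notch-like protein Dlk1 (-0.47 ± 0.06) fell and Pi16 (0.21 ± 0.08), which turned to -0.18 after quantile normalization, was higher. Pdgfra (-0.01 ± 0.07), Cd34 (-0.12 ± 0.13) and Dpp4 (-0.06 ± 0.11) did not pass. The macrophage list had 0 of 7 members higher and Cd14 lower (-0.48 ± 0.17), a call held in only 2 of 6 fits that left out an array. Endothelial, epithelial and chondrocyte lists, of 3 measured genes each, had no member higher. The skeletal muscle list had a mean of -0.29 to -0.22 in DMSO and 0.28 to 0.30 in MDI, with 3 of 6 members higher. That change in the mean rested on the oxygen carrier Mb (3.56 ± 0.12), as the median log2 fold change of the list was 0.05. The filament protein Des (0.65 ± 0.05) was also higher and skeletal actin Acta1 (-1.04 ± 0.07) was lower. The muscle-determining factors Myod1 (-0.03 ± 0.04) and Myog (-0.03 ± 0.03) did not pass. The bone list rested on the phosphatase Alpl (1.60 ± 0.09), with Bglap (-0.03 ± 0.07) and Ibsp (-0.05 ± 0.05) not called.

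On the deposited scale the largest rises were much larger than the largest falls, and this difference in size depended on the scaling. Of the 14763 named genes 6126 were called (41.5%), 3228 of them higher (21.9%) and 2898 lower (19.6%). At least a 2-fold change was reached by 528 genes upward (3.58%) and 75 downward (0.508%). A rise of at least 4-fold was found in 143 genes, at least 8-fold in 43 and at least 16-fold in 16, against 0 genes lower by 4-fold. Quantile normalization, which gives every array the same spread of values, left 211 genes at least 2-fold higher and 128 lower, 34 and 12 past 4-fold, 6 and 0 past 8-fold, and 0 higher past 16-fold. It multiplied the log2 fold change by a median of 0.606 in the 528 genes and 1.21 in the 75. The sizes of rises and falls given below are on the deposited scale and are not compared with each other. The median log2 fold change over all genes was 0.0035. In all 603 genes past 2-fold, the 3 MDI arrays did not overlap the 3 DMSO arrays. This was also true of 49.9% of all genes, so it adds no support where it is stated below.

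**Figure D1:**
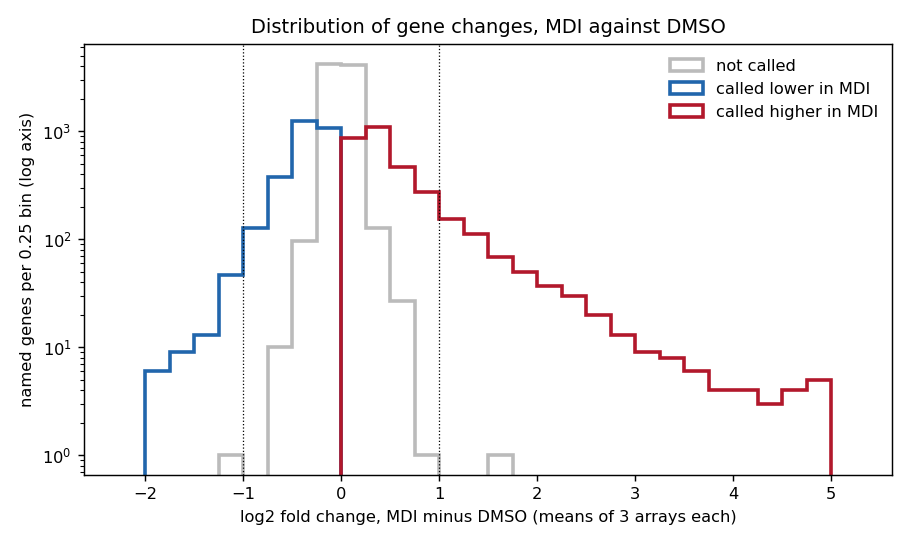
Number of named genes (log axis) by log2 fold change of MDI minus DMSO in bins of 0.25, for genes called higher, called lower and not called; dotted lines mark a 2-fold change. On this deposited scale the called genes reach past 4-fold upward in 143 genes and in 0 genes downward, against 34 and 12 after quantile normalization.

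The genes were grouped in 81 lists of transporters, secreted proteins, regulators, signalling, metabolism, structure and proliferation, which moved unevenly. Lists of mitochondrial, glycolytic and amino acid breakdown genes were mostly higher, and lists of matricellular, elastic fibre and contractile genes were mostly lower. The shares called in each list can be read against the 21.9% higher and 19.6% lower among all named genes. Many lists share members, so their counts are not separate results. Counts of 3 or fewer members often moved by 1 or 2 when an array was left out, and nothing is read from them.

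**Figure D2:**
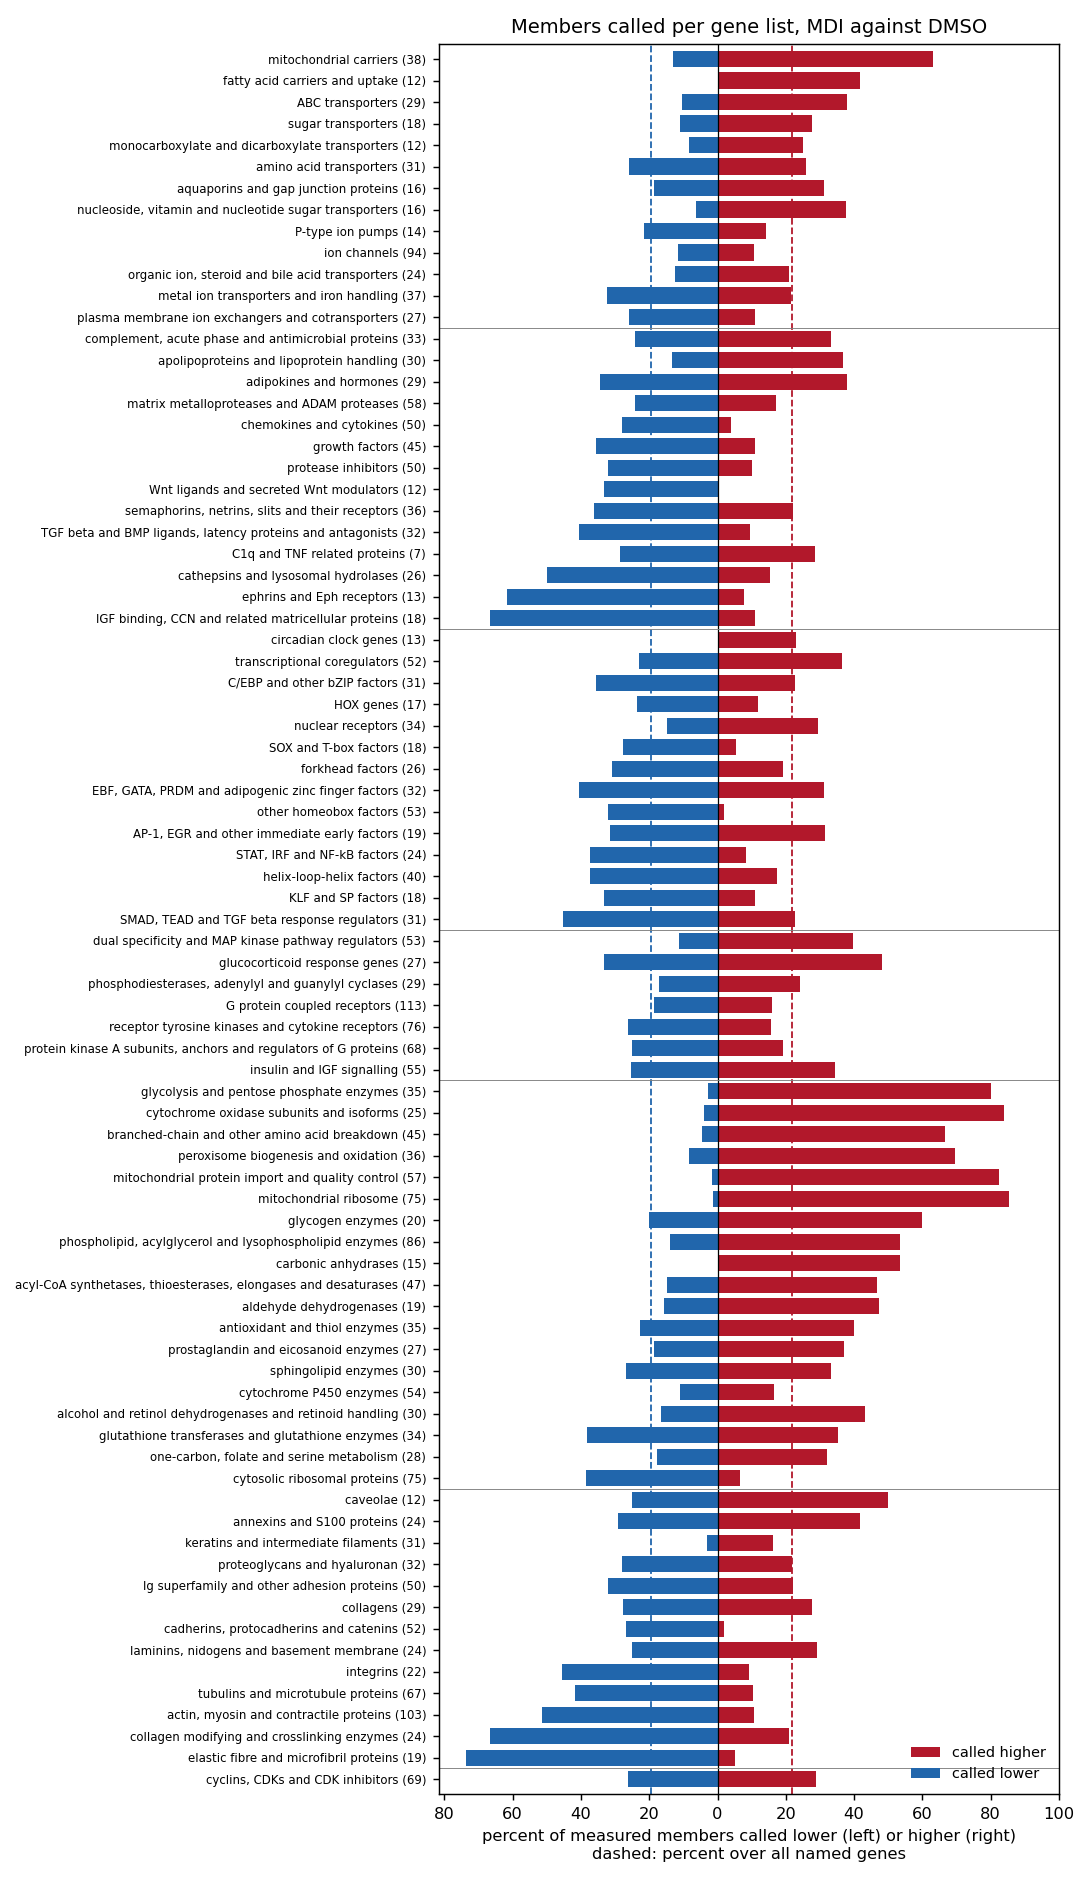
Percent of the measured members (number in brackets) of each of 81 gene lists called higher (right, red) or lower (left, blue) in MDI against DMSO; dashed lines give the 21.9% and 19.6% over all 14763 named genes, and grey lines part the kinds of list in the order transport, secreted, regulator, signal, metabolism, structure and proliferation. The mitochondrial ribosome reaches 85.3% higher, and elastic fibre proteins reach 73.7% lower.

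Genes of transport across the plasma membrane changed member by member rather than as a class. Among 18 measured sugar transporters 5 were higher, or 3 without DMSO replicate 2 or MDI replicate 2, and 2 lower, with a median of 0.05, and the change rested on the insulin-responsive glucose transporter Slc2a4. It read -2.72, -2.94 and -2.48 on the DMSO arrays and 1.84, 1.93 and 2.01 on the MDI arrays, a 25-fold rise (adjusted p = 1.07e-22 in limma). The intracellular hexose transporter Slc2a8 (0.67 ± 0.05) and the glucose 6-phosphate carrier Slc37a4 (0.31 ± 0.05) rose by less. The sugar exporter Slc50a1 (-0.51 ± 0.06) fell. The glucose transporter Slc2a1, which serves basal uptake in most cells, did not pass (-0.15 ± 0.13).

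The solute carrier (SLC) gene with the largest rise after Slc2a4 was Slc13a4 (2.84 ± 0.08), a sodium-coupled sulfate transporter. Its log2 ratios were -1.45, -1.61 and -1.27 in DMSO and 1.32, 1.50 and 1.38 in MDI, so the groups lay far apart, and its level in MDI also exceeded that in ROSI by 1.34 ± 0.08 and that in TBT by 1.88 ± 0.08. The lactate exporter Slc16a3 (1.22 ± 0.06) and its chaperone Bsg (1.32 ± 0.09) rose side by side. Together these were the 3 higher members among 12 measured monocarboxylate and dicarboxylate transporters.

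Of 31 amino acid transporters 8 were higher and 8 lower, 25.8% each, near the 21.9% and 19.6% of all named genes. Fitting only the compared arrays left 5 higher. Those that rose included the proton-coupled glycine and proline transporter Slc36a2 (2.78 ± 0.09), the branched-chain amino acid transporter Slc43a1 (1.25 ± 0.07), its relative Slc43a3 (1.13 ± 0.12), the glutamine transporter Slc1a5 (0.89 ± 0.06) and the glutamate transporter Slc1a3 (0.58 ± 0.08). Slc36a2 read -1.58, -1.87 and -1.32 in DMSO and 1.28, 1.07 and 1.23 in MDI. Those that fell included the creatine transporter Slc6a8 (-0.90 ± 0.07), the lysosomal glutamine carrier Slc38a7 (-0.63 ± 0.09), the glycine transporter Slc6a9 (-0.39 ± 0.07) and the heavy chain Slc3a2 (-0.48 ± 0.08).

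Iron and metal handling genes changed in both directions, with a share higher near that of all genes. The transferrin receptor Tfrc (1.65 ± 0.07) and transferrin itself, Trf (1.60 ± 0.10), rose, as did the ferritin receptor Ncoa4 (0.81 ± 0.11) and the iron importer Slc11a2 (0.44 ± 0.06). The iron exporter ferroportin, Slc40a1 (-0.88 ± 0.06), and the metalloreductases Steap1 (-0.56 ± 0.07) and Steap2 (-0.47 ± 0.07) fell. Transferrin read -0.26, -0.32 and -0.31 in DMSO and 1.21, 1.37 and 1.33 in MDI, and ferroportin read -0.09, 0.11 and -0.07 in DMSO and -0.98, -0.82 and -0.90 in MDI. Neither gene had overlapping groups, which was also true of 49.9% of all named genes. The mitochondrial iron importer Slc25a37 (-0.69 ± 0.09) fell as well, and so did the zinc transporter Slc39a6 (-0.86 ± 0.06). Over the whole list 8 of 37 members were higher and 12 lower.

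Few carriers for vitamins and organic ions changed at least 2-fold, and those few rose. The biotin and pantothenate transporter Slc5a6 (1.97 ± 0.06) read -1.40, -1.52 and -1.32 in DMSO and 0.60, 0.48 and 0.61 in MDI. The organic anion transporter family member Slc22a20 (2.16 ± 0.13) and the ergothioneine transporter Slc22a4 (1.10 ± 0.07) rose, and the folate carrier Slc46a1 (0.51 ± 0.06) and the lysosomal carrier Slc46a3 (0.82 ± 0.07) rose by less. The organic anion transporter Slco3a1 (-0.63 ± 0.07) fell. Of the organic ion list 5 of 24 were higher (20.8%) and 3 lower (12.5%), beside 21.9% and 19.6% of all named genes. In the vitamin and nucleotide list 6 of 16 were higher, and only the nucleoside transporter Slc29a1 (-0.48 ± 0.05) was lower.

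Mitochondrial carriers were the transport list with the largest share higher, 24 of 38, with 5 lower and a median of 0.35. The orphan carrier Slc25a34 (2.37 ± 0.12), the pyruvate carrier subunit Mpc1 (2.03 ± 0.05), the citrate carrier Slc25a1 (1.87 ± 0.11), the dicarboxylate carrier Slc25a10 (1.29 ± 0.12) and the ADP/ATP carrier Slc25a5 (1.27 ± 0.06) led. Citrate export by Slc25a1 supplies carbon for fatty acid synthesis in the cytosol. The calcium-regulated carriers Slc25a24 (-0.58 ± 0.05) and Slc25a12 (-0.41 ± 0.05) fell. Slc25a14 had the lowest value (-1.21 ± 0.40), but DMSO replicate 3 stood at 2.76 and without that array the difference was -0.36.

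The cholesterol exporters Abcg1 (2.09 ± 0.09) and Abca1 (1.46 ± 0.11) rose, with 11 of 29 ABC transporters higher. The lysosomal peptide transporter Abcb9 (1.31 ± 0.06) and the cobalamin carrier Abcd4 (0.94 ± 0.05) followed. Ion channels showed few calls, 10 of 94 higher and 11 lower, both shares below those of all genes. The potassium leak channel Kcnk3 (2.46 ± 0.12) was the exception in size, at -1.32, -1.95 and -1.14 in DMSO and 0.99, 0.94 and 1.05 in MDI. The volume-regulated anion channel subunit Lrrc8d (0.90 ± 0.07) and the chloride channel Clcn3 (0.75 ± 0.05) rose, and the mechanosensitive channel Piezo1 (-0.41 ± 0.06) fell. The water channel Aqp8 (1.97 ± 0.09) and the intracellular aquaporin Aqp11 (0.86 ± 0.10) rose, as did the glycerol channel of fat cells, Aqp7 (0.40 ± 0.07), among 5 of 16 higher and 3 lower. Of the sodium pump, the beta subunit Atp1b1 (-1.90 ± 0.12) and the regulator Fxyd5 (-0.74 ± 0.07) fell. Atp1b1 read 0.71, 0.34 and 0.40 in DMSO and -1.31, -1.52 and -1.41 in MDI, the largest fall among transport genes, whereas the other beta subunit Atp1b3 (0.37 ± 0.07) rose. Of the pump list 2 of 14 were higher and 3 lower. Ion exchangers and cotransporters were higher in 3 of 27 cases and lower in 7, with the potassium chloride cotransporter Slc12a4 (-0.55 ± 0.08) the lowest. Fatty acid carriers were higher in 5 of 12 and lower in 0, with Fabp5 (2.58 ± 0.09), an epidermal type carrier, beside Fabp4 (4.58 ± 0.13) and Cd36 (4.18 ± 0.10).

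**Figure D3:**
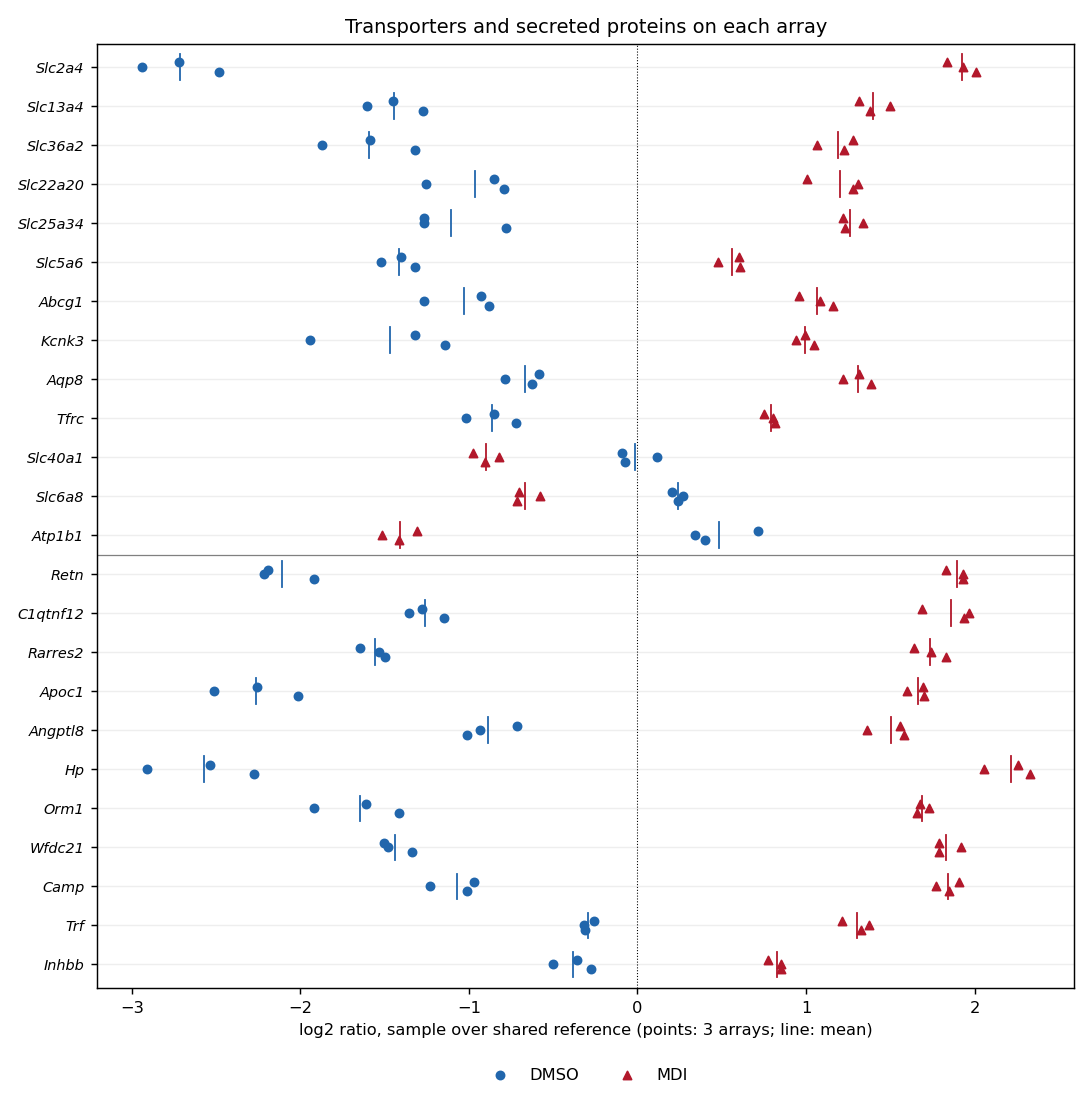
Log2 ratio of sample over reference on each of the 3 DMSO arrays (circles) and 3 MDI arrays (triangles) for 13 transport genes (top) and 11 secreted proteins (bottom); short lines are group means. The groups do not overlap for any of the 24 genes, which is also true of 49.9% of all named genes. Slc40a1, Slc6a8 and Atp1b1 lie lower in MDI.

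Among adipokines and hormones 11 of 29 were higher and 10 lower. Resistin, Retn (4.01 ± 0.08), an adipokine of mouse fat, read -2.19, -2.22 and -1.92 in DMSO and 1.83, 1.93 and 1.93 in MDI. Adiponectin, Adipoq (4.23 ± 0.10), chemerin, Rarres2 (3.30 ± 0.07), and the enzyme and secreted factor Nampt (1.57 ± 0.09) rose. So did Sparcl1 (1.38 ± 0.10) and the neuregulin Nrg4 (1.10 ± 0.07). The growth arrest ligand Gas6 (-0.74 ± 0.09), its relative Pros1 (-0.51 ± 0.05), progranulin, Grn (-0.60 ± 0.08), and adrenomedullin, Adm (-0.49 ± 0.06), fell. Adipolin, C1qtnf12 (3.12 ± 0.09), rose most of the 7 measured C1q and TNF related genes, of which 2 were higher and 2 lower, and its relative C1qtnf5 (-0.75 ± 0.05) fell.

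Genes of lipoprotein handling rose in 11 of 30 cases and fell in 4, or in 1 without DMSO replicate 3 and 2 without MDI replicate 2. The small apolipoproteins Apoc1 (3.93 ± 0.11) and Apoc2 (2.36 ± 0.07), the lipase regulators Angptl8 (2.39 ± 0.08) and Angptl4 (1.53 ± 0.10) and the HDL receptor Scarb1 (1.91 ± 0.08) were among those that rose. Apod (-0.78 ± 0.11), a lipocalin of quiescent fibroblasts, fell. Angptl4 was not called against ROSI (-0.11 ± 0.10) and was lower than in TBT (-0.67 ± 0.10).

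Acute phase and antimicrobial proteins included several of the strongest secreted responses. Haptoglobin, Hp (4.79 ± 0.10), which binds free haemoglobin, read -2.54, -2.91 and -2.28 in DMSO and 2.26, 2.06 and 2.33 in MDI, a 27.6-fold rise. The whey acidic protein family member Wfdc21 (3.27 ± 0.09) read -1.50, -1.48 and -1.34 in DMSO and 1.79, 1.92 and 1.79 in MDI. The cathelicidin Camp (2.91 ± 0.10), an antimicrobial peptide, read -0.97, -1.23 and -1.01 in DMSO and 1.91, 1.77 and 1.85 in MDI. The plasma carrier proteins Orm1 (3.34 ± 0.10) and Orm2 (3.15 ± 0.11) rose too, but the genes are close copies and their probes may share targets. Itih4 (2.22 ± 0.14) and the protease inhibitor Serpina3n (1.11 ± 0.07) were higher. In the opposite direction, lysozyme Lyz1 (-1.90 ± 0.09) fell 3.74-fold, and its close copy Lyz2 (-0.69 ± 0.14) fell by less. The pentraxin Ptx3 (-0.71 ± 0.07) and the complement proteases C1ra (-0.61 ± 0.05) and C1s1 (-0.53 ± 0.06) were lower. Of the 33 measured members of this list 11 were higher and 8 lower.

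Growth factors were lower in 16 of 45 cases and higher in 5. The VEGF family split: Vegfa (0.94 ± 0.08), which acts on blood vessels, rose, while Vegfc (-1.45 ± 0.05) and Vegfd (-0.90 ± 0.06), which act on lymphatic vessels, fell. Vegfc read 0.47, 0.48 and 0.35 in DMSO and -0.96, -1.01 and -1.08 in MDI. Fgf1 (0.70 ± 0.05), Igf2 (0.62 ± 0.07) and Fgf10 (0.53 ± 0.05) rose, and Pdgfa (-1.05 ± 0.04) and Hbegf (-0.93 ± 0.10) fell. Pdgfa is a ligand of the receptor Pdgfra, whose own value did not pass.

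The TGF beta family was lower in 13 of 32 members and higher in 3. The ligand Tgfb3 (-1.92 ± 0.08) had the largest fall of all named genes, with log2 ratios of 0.47, 0.77 and 0.61 in DMSO and -1.30, -1.31 and -1.31 in MDI, a 3.79-fold fall (adjusted p = 2.86e-16 in limma). The activin subunits went opposite ways: Inhba (-1.14 ± 0.05) fell and Inhbb (1.21 ± 0.06) rose. Inhba read 0.23, 0.21 and 0.42 in DMSO and -0.86, -0.90 and -0.82 in MDI, and Inhbb read -0.36, -0.50 and -0.28 and 0.78, 0.85 and 0.85. The BMP antagonist Grem1 (-0.98 ± 0.15), the follistatin-like protein Fstl1 (-1.12 ± 0.07) and the latent TGF beta binding protein Ltbp2 (-0.60 ± 0.06) fell. The growth factor Gdf5 (1.90 ± 0.05) rose, although its 2 probes gave 0.84 and 2.96. No member of the Wnt list was called higher, and 4 of 12 were lower, Sfrp2 (-0.92 ± 0.10) and Rspo3 (-0.57 ± 0.08) among them.

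Chemokines and cytokines were rarely higher, 2 of 50, and lower in 14. The monocyte chemoattractants Ccl2 (-1.79 ± 0.09), Ccl8 (-1.71 ± 0.08) and Ccl7 (-1.27 ± 0.08) and the alarmin Il33 (-1.29 ± 0.11) fell at least 2-fold. Ccl8 read 0.19, 0.08 and 0.23 in DMSO and -1.39, -1.55 and -1.71 in MDI. The neutrophil chemokine Cxcl5 (-0.81 ± 0.12) fell by less.

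Secreted protease inhibitors were lower more often than higher. The inhibitors Wfdc12 (1.71 ± 0.08) and Wfdc21 rose, beside Itih4 and Serpina3n named above. The inhibitors Slpi (-1.19 ± 0.07), Timp2 (-0.95 ± 0.08), Timp3 (-0.95 ± 0.11) and Cst3 (-0.69 ± 0.09) fell, and 16 of 50 inhibitors were lower against 5 higher. The collagen-cleaving membrane protease Mmp14 (-0.83 ± 0.13), its substrate Mmp2 (-0.59 ± 0.11) and the sheddase Adam10 (-0.77 ± 0.10) fell. The aggrecan-cleaving relatives Adamts15 (1.53 ± 0.04) and Adamts9 (0.77 ± 0.07) rose. Of 58 proteases 10 were higher, or 5 after quantile normalization or without DMSO replicate 2 and 6 without MDI replicate 3, and 14 lower. The axon guidance proteins were lower in 13 of 36 cases, led by Slit2 (-1.35 ± 0.10), Nrp2 (-0.77 ± 0.07) and Sema5a (-0.65 ± 0.08), and higher in 8, such as Sema4g (0.74 ± 0.06) and the receptor Plxnb3 (0.71 ± 0.06). Of the ephrins and their receptors 8 of 13 fell, led by Efnb2 (-0.86 ± 0.10) and Epha4 (-0.58 ± 0.09), and 1 rose.

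Among nuclear receptors 10 of 34 were higher and 5 lower. Besides Pparg (2.54 ± 0.06), the oxysterol receptor Nr1h3 (2.29 ± 0.08), the oestrogen-related receptor Esrra (1.56 ± 0.06), which drives mitochondrial genes, and Ppard (0.64 ± 0.08) rose. The orphan receptor Nr2f1 (-0.59 ± 0.07), the retinoic acid receptor Rarg (-0.46 ± 0.10) and the vitamin D receptor Vdr (-0.32 ± 0.05) fell. Rxrg (0.78 ± 0.07) rose in the mean, but its 2 probes gave -0.05 and 1.60.

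The Krüppel-like factors were led in opposite directions by Klf15 (2.79 ± 0.07), a glucocorticoid-induced regulator of amino acid and glucose metabolism, and Klf4 (-1.07 ± 0.11), an early factor of adipogenesis. Klf15 read -1.10, -1.35 and -1.16 in DMSO and 1.63, 1.66 and 1.47 in MDI, a 6.93-fold rise. Klf2 (-0.52 ± 0.10) and Klf6 (-0.51 ± 0.05) fell, and in all 6 of 18 members were lower and 2 higher. The C/EBP factors differed by member: Cebpa (2.31 ± 0.09) rose most, Cebpb (0.51 ± 0.07) and Cebpg (0.62 ± 0.08) rose by less, and Cebpd (-0.43 ± 0.10), which acts early in adipogenesis, was below the control. Nfil3 (0.47 ± 0.05), a repressor of the same bZIP class, rose, and the haem-sensing repressor Bach1 (-0.73 ± 0.09) and the stress factor Ddit3 (-0.40 ± 0.06) fell. Of the bZIP list 7 of 31 were higher and 11 lower.

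The inhibitors of helix-loop-helix factors fell together. Id2 (-1.58 ± 0.12), Id3 (-0.96 ± 0.09), Id4 (-0.91 ± 0.10) and Id1 (-0.71 ± 0.07) were lower. Id3 read 0.29, 0.25 and 0.25 in DMSO and -0.70, -0.60 and -0.79 in MDI. The mesenchymal factor Twist2 (-0.86 ± 0.08) fell with them, and in this class 15 of 40 members were lower and 7 higher. The lipogenic factor Srebf1 (0.69 ± 0.10) and the MYC antagonist Mxd1 (0.63 ± 0.05) rose, and so did Myc (0.48 ± 0.07) itself. Epas1, a hypoxia-inducible factor, rose in the mean (1.24 ± 0.05), but its 3 probes ranged from 0.09 to 2.06.

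Homeobox factors outside the HOX clusters were lower in 17 of 53 cases and higher in 1. Irx1 (-1.18 ± 0.09), Irx2 (-0.61 ± 0.07), Tgif1 (-0.87 ± 0.05), Prrx1 (-0.57 ± 0.07) and Prrx2 (-0.78 ± 0.06) fell, the last a pair typical of limb and connective tissue mesenchyme. Among zinc finger factors the repressors Bcl6 (1.78 ± 0.08) and Zbtb16 (1.01 ± 0.05) and the fat cell factor Ebf2 (0.82 ± 0.07) rose, while Zfp521 (-0.83 ± 0.07), Gata2 (-0.71 ± 0.17), Gata3 (-0.45 ± 0.06) and Ebf3 (-0.41 ± 0.07) fell. Of the zinc finger list 10 of 32 were higher and 13 lower. The chondrogenic factor Sox9 (-0.73 ± 0.07) and the fat depot factor Tbx15 (-0.41 ± 0.05) fell, with 5 of 18 SOX and T-box factors lower and 1 higher. The insulin-regulated forkhead factor Foxo1 (0.55 ± 0.05) rose and Foxd1 (-0.59 ± 0.11) fell, among 26 forkhead factors with 5 higher and 8 lower. Of 17 HOX genes 2 were higher (11.8%) and 4 lower (23.5%), none by 2-fold, beside 21.9% and 19.6% of all named genes. Of STAT, IRF and NF-kB factors 9 of 24 were lower, including Nfkb2 (-0.63 ± 0.07), and 2 were higher, Stat5a (0.68 ± 0.09) among them.

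The immediate early class did not move as a block, with 6 of 19 higher and 6 lower. The AP-1 member Fosl1 (1.18 ± 0.07) was the clear riser and the antiproliferative Btg2 (0.88 ± 0.06) followed. Fosl1 read -0.22, -0.38 and -0.08 in DMSO and 0.88, 0.95 and 1.02 in MDI. Without DMSO replicate 2 only 3 of the 6 lower calls remained by count.

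Among coregulators 19 of 52 were higher and 12 lower. The risers included the nuclear receptor corepressor Nrip1 (0.92 ± 0.08), the deacetylase Sirt3 (0.91 ± 0.05) of mitochondria and the coactivator Ncoa1 (0.84 ± 0.05). Lpin1 had a mean of 1.36 ± 0.04, with probes at 0.26 and 2.45. The LIM proteins Fhl2 (-1.07 ± 0.06) and Ajuba (-0.66 ± 0.10) and the corepressor Tle6 (-0.49 ± 0.05) fell. In the SMAD and TEAD list 14 of 31 members were lower and 7 higher. The lower ones included the feedback inhibitors Smad7 (-0.58 ± 0.07) and Skil (-0.54 ± 0.07), the transducer Smad3 (-0.52 ± 0.05) and Tead2 (-0.52 ± 0.05). The TEAD cofactor Vgll4 (0.74 ± 0.10) and the receptor Tgfbr1 (0.63 ± 0.06) rose. Clock genes gave 3 calls among 13, a share of 23.1% higher that was near the 21.9% of all genes.

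**Figure D4:**
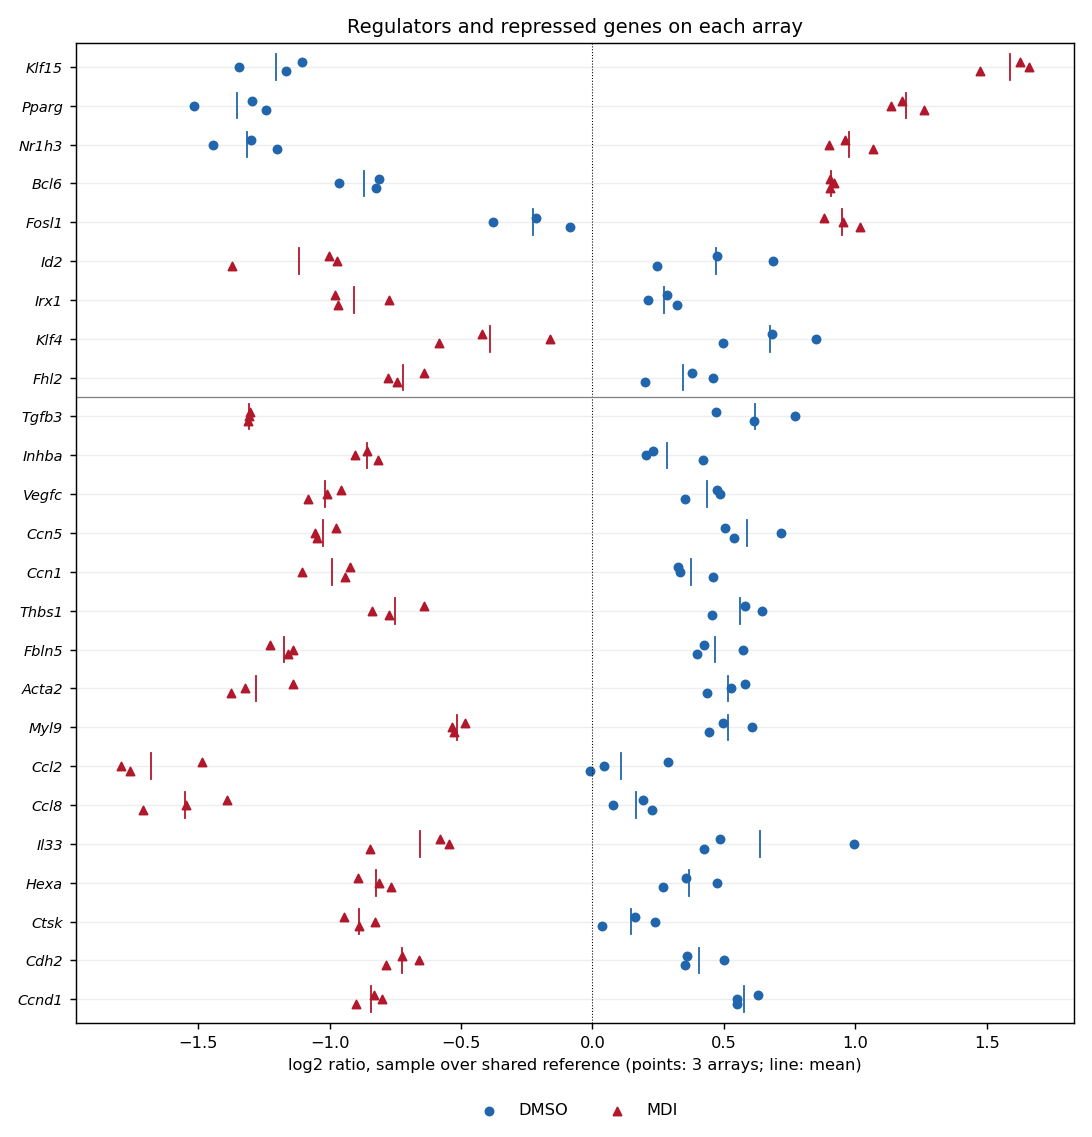
Log2 ratio of sample over reference on each of the 3 DMSO arrays (circles) and 3 MDI arrays (triangles) for 9 transcription regulators (top) and 16 repressed genes (bottom); short lines are group means. Klf15, Pparg, Nr1h3, Bcl6 and Fosl1 lie higher in MDI and the other 20 genes lower. The groups do not overlap, which is also true of 49.9% of all named genes.

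Among genes of the pathways on which the cocktail acts, the shares called in the cyclic AMP lists were near those of all genes. In that pathway, the phosphodiesterase Pde3b (1.89 ± 0.06), which insulin uses to lower cyclic AMP, rose from -0.84, -0.93 and -0.82 in DMSO to 1.07, 0.98 and 1.02 in MDI. The regulatory subunit Prkar2b (1.44 ± 0.05) of protein kinase A, the G protein subunit Gng2 (1.24 ± 0.04) and the regulators Rgs2 (1.03 ± 0.07) and Rgs17 (1.34 ± 0.08) rose. Pde7a (-0.60 ± 0.06) and the natriuretic peptide receptor Npr2 (-0.45 ± 0.05) fell. Of 29 phosphodiesterases and cyclases 7 were higher and 5 lower, or 3 lower without DMSO replicate 2. Of 68 kinase A subunits, anchors and G protein regulators 13 were higher and 17 lower. In the insulin pathway, the adaptor Sh2b2 (2.57 ± 0.07), the transporter-trafficking protein Trarg1 (1.38 ± 0.10), the translation repressor Eif4ebp1 (1.07 ± 0.08) and the substrate Irs2 (0.94 ± 0.13) rose. The receptor Igf1r (-0.82 ± 0.11) and the inhibitory adaptor Grb14 (-0.61 ± 0.06) fell. The whole insulin and IGF list had 19 of 55 members higher and 14 lower.

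Known glucocorticoid response genes were split, with 13 of 27 higher (48.1%) and 9 lower (33.3%), 8 days after dexamethasone was withdrawn. Among all named genes 21.9% were higher and 19.6% lower. Of this list, 8 higher members and 1 lower member changed at least 2-fold. The enzyme Hsd11b1 (3.77 ± 0.05), which regenerates active glucocorticoid inside the cell, read -1.61, -1.64 and -1.59 in DMSO and 2.13, 2.10 and 2.24 in MDI, a 13.6-fold rise. Glutamine synthetase Glul (2.85 ± 0.09), Orm1 (3.34 ± 0.10), Klf15 (2.79 ± 0.07) and the sulfotransferase Sult1a1 (1.64 ± 0.07) rose. Cebpd (-0.43 ± 0.10) was lower. Several members are also fat cell genes, and their call cannot be assigned to the hormone.

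Of 113 measured G protein coupled receptors 18 were higher and 21 lower, both shares below those of all genes. The long-chain fatty acid receptor Ffar4 (2.70 ± 0.06) read -1.03, -1.02 and -0.81 in DMSO and 1.70, 1.81 and 1.73 in MDI. The short-chain fatty acid receptor Ffar2 (2.49 ± 0.25) rose with a wider error. Hcar2, which binds hydroxybutyrate, rose in the mean (1.43 ± 0.10), with probes at 0.38 and 2.48. The neuropeptide Y receptor Npy1r (-0.95 ± 0.11) fell. Among receptor kinases and cytokine receptors 20 of 76 were lower and 12 higher, with Pdgfrb (-0.81 ± 0.10), the collagen receptor Ddr2 (-0.64 ± 0.06) and Tyro3 (-0.62 ± 0.06) lower and Ifngr1 (0.87 ± 0.08) higher. Of regulators of the MAP kinase pathway, the phosphatases Dusp4 (2.01 ± 0.06), Dusp6 (0.82 ± 0.07) and Dusp10 (0.82 ± 0.06), the inhibitor Spry4 (0.84 ± 0.05) and the EGF receptor inhibitor Errfi1 (1.06 ± 0.10) were higher. Of that list 21 of 53 members were higher and 6 lower. Dusp4 read -0.78, -0.80 and -0.71 in DMSO and 1.35, 1.06 and 1.33 in MDI.

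Carbonic anhydrases, which convert carbon dioxide to bicarbonate, were higher in 8 of 15 measured members and lower in 0. The cytosolic Car3 (4.86 ± 0.13) and Car2 (3.49 ± 0.15), the cell surface Car9 (1.90 ± 0.10), the cytosolic Car13 (1.16 ± 0.07) and the mitochondrial Car5b (1.03 ± 0.10) rose at least 2-fold. Car3, whose carbon dioxide activity is weak, read -2.86, -3.20 and -2.47 in DMSO and 2.00, 2.01 and 2.04 in MDI. Car2 read -1.80, -2.45 and -1.44 in DMSO and 1.61, 1.48 and 1.70 in MDI. The family's median log2 fold change was 0.28.

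Enzymes of glycolysis and the pentose phosphate pathway rose as a class, 28 of 35 higher with a median of 1.03 and 18 past 2-fold. The lactate dehydrogenases Ldhb (2.46 ± 0.05) and Ldha (2.15 ± 0.08), the regulator Pfkfb3 (2.12 ± 0.07) and phosphoglycerate kinase Pgk1 (2.06 ± 0.09) were among the largest rises. The list also counts the pyruvate dehydrogenase subunit Pdhb (2.19 ± 0.08), whose complex acts after glycolysis. Pgk1 read -0.72, -0.62 and -0.64 in DMSO and 1.31, 1.34 and 1.56 in MDI. Against ROSI 22 of the 35 enzymes were higher and 2 lower, where 11.7% of all genes were higher and 10.9% lower. Against TBT 27 were higher and 2 lower, with 16.9% and 13.2% among all genes. Pgk1 exceeded ROSI by 1.09 ± 0.09 and TBT by 1.44 ± 0.09. Eno3 (-0.27 ± 0.04), the muscle enolase, was the lower member against DMSO.

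The Pgk1 promoter is shown because the gene is known for a hypoxia response element upstream of its start. It was read from the RefSeq table of promoters (build GRCm38.p6, chrX:106186850-106187149, plus strand, 250 bases before to 50 after the start), where a match to ACGTGC on either strand, in capitals, begins 132 bases before the start.
Pgk1: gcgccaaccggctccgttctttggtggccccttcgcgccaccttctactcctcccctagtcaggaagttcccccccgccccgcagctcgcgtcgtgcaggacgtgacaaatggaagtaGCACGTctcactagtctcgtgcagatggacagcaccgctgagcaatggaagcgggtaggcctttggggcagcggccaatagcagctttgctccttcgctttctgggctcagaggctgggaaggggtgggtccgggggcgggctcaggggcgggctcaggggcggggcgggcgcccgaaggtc
Such a match was in 7 of 34 glycolysis and pentose phosphate genes with a promoter in the table (20.6%) and in 8.48% of the 11687 measured genes with one. It was also in 14.3% of genes at least 4-fold higher, 9.44% of those at least 2-fold higher and 17% of those at least 2-fold lower. A match is a description of letters, not a bound site.

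Glycogen enzymes were higher in 12 of 20 cases and lower in 4. The liver-type phosphorylase Pygl (2.96 ± 0.07) read -1.02, -0.94 and -0.86 in DMSO and 1.91, 2.17 and 1.97 in MDI, whereas the brain-type Pygb (-0.30 ± 0.09) fell slightly. The muscle-type synthase Gys1 (1.55 ± 0.07), the liver-type synthase Gys2 (0.97 ± 0.07) and phosphoglucomutase Pgm1 (1.96 ± 0.06) rose. The branching enzyme Gbe1 (1.62 ± 0.05) had probes at 0.13 and 3.10.

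The list of branched-chain and other amino acid breakdown had 30 of 45 genes higher, 20 of them past 2-fold, and 2 lower. Alanine transaminase Gpt (2.96 ± 0.11), the valine-degrading Aldh6a1 (2.12 ± 0.11) and proline dehydrogenase Prodh (2.08 ± 0.10) were among the largest rises. Glutamine synthetase Glul (2.85 ± 0.09) and the fatty acyl-CoA dehydrogenase Acadm (2.15 ± 0.08) rose too. These 2 are counted in the list but are not themselves amino acid breakdown enzymes. The cytosolic branched-chain transaminase Bcat1 (-0.43 ± 0.06) and argininosuccinate synthase Ass1 (-0.44 ± 0.07) fell. The folate enzyme Aldh1l1 (3.42 ± 0.13) read -1.35, -1.72 and -1.32 in DMSO and 1.78, 1.92 and 2.16 in MDI, while the mitochondrial serine enzyme Shmt2 (-0.59 ± 0.08) fell. One-carbon genes were higher in 9 of 28 cases and lower in 5, or in 3 without DMSO replicate 1. The methyltransferases Nnmt (1.26 ± 0.06), which acts on nicotinamide, and Pemt (1.21 ± 0.05), which makes phosphatidylcholine, rose. Aldehyde dehydrogenases were higher in 9 of 19 cases and lower in 3, with Aldh1a7 (2.84 ± 0.09) and the proline-degrading Aldh4a1 (1.46 ± 0.07) higher and the retinal dehydrogenase Aldh1a1 (-0.41 ± 0.06) lower.

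Detoxifying and redox enzymes were split. The selenium-binding protein Selenbp1 (4.32 ± 0.11), which oxidises methanethiol, read -2.19, -2.34 and -1.92 in DMSO and 2.09, 2.23 and 2.18 in MDI, a 19.9-fold rise. The glutathione transferases Gstz1 (2.50 ± 0.09), Mgst3 (1.91 ± 0.10) and Mgst2 (1.75 ± 0.09) rose, as did the methionine sulfoxide reductase Msra (1.72 ± 0.05) and mitochondrial superoxide dismutase Sod2 (1.63 ± 0.06). Chac1 (-0.77 ± 0.07), Gsto1 (-0.52 ± 0.05) and Gsto2 (-0.63 ± 0.09) fell. In the glutathione list 12 of 34 were higher and 13 lower, or 8 lower without MDI replicate 1. Antioxidant and thiol enzymes were higher in 14 of 35 and lower in 8. The carbonyl reductases Cbr2 (1.92 ± 0.06) and Cbr3 (1.53 ± 0.06) rose, and the steroid enzyme Akr1c14 (-0.93 ± 0.08) and the leukotriene enzyme Lta4h (-0.62 ± 0.10) fell, in a prostaglandin and eicosanoid list with 10 of 27 higher and 5 lower. The retinol saturase Retsat (2.20 ± 0.10) and the epoxide hydrolase Ephx2 (1.93 ± 0.10) rose, and the oxysterol hydroxylase Cyp7b1 (-0.90 ± 0.08), Cyp1b1 (-0.75 ± 0.05) and the retinoic acid hydroxylase Cyp26b1 (-0.70 ± 0.09) fell. Cytochrome P450 enzymes were higher in 9 of 54 cases and lower in 6, and retinoid and alcohol dehydrogenases in 13 and 5 of 30.

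The Selenbp1 promoter is shown as that of a gene with a large rise that holds a match to the C/EBP motif TTGCNNAA, in capitals and beginning 51 bases before the start (GRCm38.p6, chr3:94932833-94933132, plus strand, RefSeq). The same window also holds a CArG box, which does not overlap the match.
Selenbp1: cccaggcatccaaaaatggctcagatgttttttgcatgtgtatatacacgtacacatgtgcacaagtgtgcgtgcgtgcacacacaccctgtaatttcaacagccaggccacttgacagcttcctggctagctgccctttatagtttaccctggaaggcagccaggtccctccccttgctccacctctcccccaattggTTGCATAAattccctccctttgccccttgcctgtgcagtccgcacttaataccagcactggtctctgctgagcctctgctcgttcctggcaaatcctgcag
The motif, sought on both strands, was in 19 of 112 genes called at least 4-fold higher that had a promoter in the table (17%), in 11.9% of 413 genes at least 2-fold higher, in 15.1% of 53 genes at least 2-fold lower and in 10.9% of all measured genes with one.

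Lipid enzymes beyond the classic set also rose. Of 86 phospholipid and acylglycerol enzymes 46 were higher and 12 lower, with the monoglyceride lipase Mgll (2.71 ± 0.08) and Abhd15 (2.66 ± 0.07), a protein that stabilises Pde3b, on the rising side and the phospholipase D family member Pld3 (-0.94 ± 0.04) and Abhd4 (-0.56 ± 0.05) on the falling side. The acyl-CoA binding protein Dbi (2.23 ± 0.07), the acetyl-CoA synthetase Acss2 (1.85 ± 0.06) and the desaturase Scd2 (1.71 ± 0.08) rose, and of the acyl-CoA enzymes 22 of 47 were higher and 7 lower, or 4 lower without MDI replicate 3. Ceramide synthase Cers4 (1.31 ± 0.05) and its pathway brake Ormdl3 (1.24 ± 0.08) rose, while the ceramidase Asah1 (-0.91 ± 0.10), the phosphatase Sgpp1 (-0.81 ± 0.07) and the lyase Sgpl1 (-0.47 ± 0.06) fell. Of 30 sphingolipid enzymes 10 were higher, or 6 after quantile normalization, and 8 lower. Of the caveolae, membrane pits that are dense in fat cells, the coat proteins Cav1 (1.90 ± 0.08), Cav2 (2.19 ± 0.09), Cavin1 (1.30 ± 0.05) and Cavin2 (1.99 ± 0.08) rose, while Ehd3 (-0.86 ± 0.07) fell, with 6 of 12 caveolar genes higher and 3 lower. Cav1 read -0.74, -1.16 and -0.81 in DMSO and 1.01, 1.12 and 0.89 in MDI.

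Most measured genes of the mitochondrial ribosome, mitochondrial import, cytochrome oxidase and the peroxisome were higher. Of 75 mitochondrial ribosomal protein genes 64 were higher and 1 lower, with a median log2 fold change of 0.48, and of 57 import and quality control genes 47 were higher. Mrpl51 (1.76 ± 0.05), Mrpl12 (1.39 ± 0.06) and Mrpl34 (1.12 ± 0.05) led the ribosome, and Chchd10 (1.80 ± 0.07), the cristae protein Apoo (1.45 ± 0.04) and the chaperone Clpx (1.30 ± 0.07) led the import list. Cytochrome oxidase genes were higher in 21 of 25 cases, 12 of them past 2-fold, where the tissue-restricted isoforms Cox7a1 (4.90 ± 0.10) and Cox8b (4.55 ± 0.12) changed more than the common subunits Cox7b (1.31 ± 0.06) and Cox5b (1.28 ± 0.05). Cox7a1, an isoform of heart, muscle and brown fat with the largest rise of all named genes on the deposited scale, read -3.02, -3.06 and -2.61 in DMSO and 1.95, 1.96 and 2.11 in MDI, a 29.9-fold rise. Peroxisome genes were higher in 25 of 36 and lower in 3, 9 of the higher ones past 2-fold, with the fission factor Pex11a (2.52 ± 0.07) and the ether lipid enzyme Gnpat (2.15 ± 0.05). Cytosolic ribosomal proteins went the other way, with 29 of 75 lower and 5 higher, or 3 higher without replicate 2 of either group, all by small amounts such as Rps12 (-0.46 ± 0.07) and Rps2 (-0.39 ± 0.06).

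The Mrpl12 promoter is shown for its match to the NRF1 motif, the element of NRF1, a factor known for mitochondrial genes (GRCm38.p6, chr11:120484387-120484686, plus strand, RefSeq). The match, in capitals, begins 81 bases before the start.
Mrpl12: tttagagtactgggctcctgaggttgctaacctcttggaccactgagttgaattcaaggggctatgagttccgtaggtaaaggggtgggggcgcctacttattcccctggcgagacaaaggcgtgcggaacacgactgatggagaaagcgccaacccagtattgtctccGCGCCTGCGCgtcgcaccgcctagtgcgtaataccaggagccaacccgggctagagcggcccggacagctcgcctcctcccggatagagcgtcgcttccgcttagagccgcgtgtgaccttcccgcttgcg
On either strand the motif was in 13 of 66 mitochondrial ribosome genes with a promoter (19.7%), against 9.39% of all measured genes with one. Mrpl12 read -0.64, -0.67 and -0.54 in DMSO and 0.73, 0.76 and 0.83 in MDI.

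Secreted regulators bound to the matrix were mostly lower. Of 18 IGF binding, CCN and related matricellular proteins 12 were lower, 9 of them at least 2-fold, with a median of -0.71. Ccn5 (-1.61 ± 0.07), Ccn1 (-1.36 ± 0.12), Ccn4 (-1.24 ± 0.05), the thrombospondin Thbs1 (-1.31 ± 0.13) and Thbs3 (-1.10 ± 0.06) fell, while Igfbp5 (0.89 ± 0.09) and Igfbp4 (0.74 ± 0.09) rose. Ccn1, an adhesive protein known as a target of YAP and TEAD, read 0.33, 0.33 and 0.46 in DMSO and -0.92, -1.11 and -0.94 in MDI, and the difference was -1.06 ± 0.12 against ROSI and -1.13 ± 0.12 against TBT.

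The Ccn1 promoter is shown as that of a falling gene with a match to the TEAD motif GGAATG (GRCm38.p6, chr3:145649936-145650235, minus strand, RefSeq, printed on the gene's strand). The match is on the other strand, in capitals, and begins 103 bases before the start.
Ccn1: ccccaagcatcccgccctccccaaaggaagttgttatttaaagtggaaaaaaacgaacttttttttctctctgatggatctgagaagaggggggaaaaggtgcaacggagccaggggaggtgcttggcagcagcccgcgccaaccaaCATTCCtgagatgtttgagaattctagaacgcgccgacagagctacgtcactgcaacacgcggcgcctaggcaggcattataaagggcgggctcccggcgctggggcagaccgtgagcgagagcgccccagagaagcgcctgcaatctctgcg
This short motif was in 15.1% of the 53 promoters of genes at least 2-fold lower and in 14.9% of all measured genes with one, so these 2 shares were close. Among the contractile genes described below it was in 29 of 86 with a promoter (33.7%).

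Elastic fibre and collagen crosslinking genes were mostly lower, 14 of 19 and 16 of 24. Fbln5 (-1.64 ± 0.08), Fbln1 (-1.07 ± 0.05), Mfap5 (-0.98 ± 0.06) and Eln (-0.85 ± 0.05) fell with the crosslinkers Lox (-0.80 ± 0.07) and Loxl1 (-0.77 ± 0.09), and Emilin2 (1.00 ± 0.07) rose. Fbln5 read 0.43, 0.57 and 0.40 in DMSO and -1.23, -1.14 and -1.16 in MDI. The crosslinking transglutaminase Tgm2 (1.85 ± 0.06) rose, and so did the hydroxylase subunit P4ha2 (0.77 ± 0.05). Of 29 collagen genes 8 were higher and 8 lower, 27.6% each, beside 21.9% and 19.6% of all named genes. Col18a1 (0.84 ± 0.06) and Col6a1 (0.54 ± 0.09) were higher and Col11a1 (-0.96 ± 0.11) and Col12a1 (-0.67 ± 0.09) lower, the last with probes at -1.42 and 0.09. After quantile normalization only 3 collagens were higher. The basement membrane gene Nid2 (0.95 ± 0.06) rose and Lamb2 (-1.04 ± 0.07) fell, with 7 of 24 basement membrane genes higher and 6 lower, or 3 lower without DMSO replicate 2. The small proteoglycan Lum (1.03 ± 0.09) rose while its relatives Bgn (-0.95 ± 0.12) and Aspn (-0.80 ± 0.09) fell, and of the proteoglycan list 7 of 32 were higher, or 3 after quantile normalization, and 9 lower.

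Contractile genes were lower in 53 of 103 cases and higher in 11, with a median of -0.20. Smooth muscle actin Acta2 (-1.79 ± 0.08) read 0.58, 0.53 and 0.44 in DMSO and -1.14, -1.32 and -1.38 in MDI, a 3.47-fold fall. Skeletal actin Acta1 (-1.04 ± 0.07), the myosin light chain Myl9 (-1.03 ± 0.07), calponin Cnn2 (-0.88 ± 0.08) and the motor Myo5a (-0.96 ± 0.15) fell, and the LIM protein Pdlim4 (1.34 ± 0.12) rose. Compared with TBT, 34 of the 103 were lower and 10 higher, where 13.2% of all named genes were lower and 16.9% higher. Compared with ROSI, 15 were lower and 14 higher, near the 10.9% and 11.7% among all named genes.

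The Myl9 promoter is shown for its CArG box, the element bound by serum response factor, in capitals and beginning 161 bases before the start (GRCm38.p6, chr2:156775214-156775513, plus strand, RefSeq).
Myl9: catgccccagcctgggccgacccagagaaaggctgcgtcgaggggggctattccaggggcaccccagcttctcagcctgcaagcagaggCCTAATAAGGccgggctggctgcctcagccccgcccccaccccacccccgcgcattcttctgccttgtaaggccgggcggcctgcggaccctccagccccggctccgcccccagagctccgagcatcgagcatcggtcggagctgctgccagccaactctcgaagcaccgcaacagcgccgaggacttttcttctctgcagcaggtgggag
A CArG box, which reads the same on both strands, was in 11 of 86 contractile genes with a promoter (12.8%) and in 1.65% of all measured genes with one. The factor's own gene, Srf (-0.25 ± 0.04), was slightly lower.

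Integrins were lower in 10 of 22 cases and higher in 2, with Itgav (-0.89 ± 0.15), Itga11 (-0.71 ± 0.07) and Itgb5 (-0.59 ± 0.05) lower and the laminin receptor Itga7 (1.52 ± 0.09) higher. N-cadherin Cdh2 (-1.13 ± 0.09), beta-catenin Ctnnb1 (-1.02 ± 0.09) and Pcdh18 (-1.19 ± 0.14) fell at least 2-fold, and 14 of 52 members of that list were lower against 1 higher. The tetraspanin Tspan12 (2.85 ± 0.11) and the junction protein F11r (1.23 ± 0.05) rose, and Vcam1 (-0.66 ± 0.03) and the fibronectin-domain protein Flrt2 (-1.09 ± 0.08) fell, with 11 of 50 adhesion genes higher and 16 lower. Tubulins differed by isotype, with Tuba1a (-0.85 ± 0.07) and Tubb5 (-0.64 ± 0.05) lower and Tubb4b (0.98 ± 0.06) and Tuba1c (0.91 ± 0.04) higher, and 28 of 67 microtubule genes were lower against 7 higher. Keratins and other intermediate filament genes were higher in 5 of 31 cases, Krt79 (1.45 ± 0.07) most, and lower in 1, the linker Plec (-0.65 ± 0.11). Of the calcium-binding annexin and S100 genes, S100a1 (3.01 ± 0.07), S100b (1.44 ± 0.08) and Anxa8 (1.11 ± 0.07) rose, and Anxa3 (-1.24 ± 0.09) and S100a4 (-0.83 ± 0.08) fell, with 10 of 24 higher and 7 lower.

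Lysosomal hydrolases were lower in 13 of 26 cases and higher in 4. The hexosaminidase subunit Hexa (-1.19 ± 0.07) read 0.36, 0.47 and 0.27 in DMSO and -0.89, -0.81 and -0.77 in MDI. Cathepsin K, Ctsk (-1.03 ± 0.06), which cleaves collagen, cathepsin L, Ctsl (-0.78 ± 0.09), the mannosidase Man2b1 (-0.94 ± 0.09) and the membrane protein Lamp2 (-0.66 ± 0.05) fell, and cathepsin H, Ctsh (0.55 ± 0.06), rose. These genes were also low beside the other agents: 14 were below ROSI and 15 below TBT, with 10.9% and 13.2% of all genes lower in those contrasts.

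Of 69 cell cycle regulators 20 were higher (29.0%) and 18 lower (26.1%), beside 21.9% and 19.6% of all named genes. Cyclin D1, Ccnd1 (-1.42 ± 0.06), fell from 0.63, 0.55 and 0.55 in DMSO to -0.83, -0.80 and -0.90 in MDI, and its partner Cdk4 (-0.70 ± 0.06) fell too. The inhibitor of that pair, Cdkn2c (2.00 ± 0.09), and the antiproliferative Tob1 (1.71 ± 0.10) and Btg1 (0.97 ± 0.07) rose.

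Among the 30 lowest genes, several belonged to no list. The mineralisation inhibitor Mgp (-1.73 ± 0.14), the small GTPase Rasl11b (-1.59 ± 0.09), the peptidase Dpp7 (-1.56 ± 0.05), Mlana (-1.54 ± 0.07), the carboxylesterase Ces1a (-1.51 ± 0.07), the pyrophosphorylase relative Uap1l1 (-1.45 ± 0.11), the tetraspan protein Tm4sf1 (-1.33 ± 0.05), the TGF beta feedback gene Pmepa1 (-1.33 ± 0.07), Epdr1 (-1.28 ± 0.07), Ctla2b (-1.25 ± 0.09) and 3300005D01Rik (-1.48 ± 0.06) fell. Tpbg, an inhibitor of Wnt signalling, was also among them (-1.24 ± 0.35), but DMSO replicate 3 stood at 2.48 and without that array the difference was -0.51. The collagen Col8a1 (-1.78 ± 0.43) had the widest error of the 30. Among the 30 highest, unlisted genes were the melanocortin receptor accessory protein Mrap (4.45 ± 0.11), the lipogenic Thrsp (3.67 ± 0.10), the hydrolase Cmbl (3.64 ± 0.13), the cell cycle regulator Rgcc (3.48 ± 0.08), the interferon-inducible Ifi27l2a (3.87 ± 0.11), the prolyl hydroxylase Egln3 (3.74 ± 0.10), Arxes2 (3.52 ± 0.09), Prxl2a (3.47 ± 0.09) and 2610528A11Rik (3.82 ± 0.11).

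To see where the cocktail differs from agents that act on the PPAR gamma pathway more directly, MDI was also set directly against ROSI and TBT, the usual abbreviations of rosiglitazone, a PPAR gamma agonist, and tributyltin, which binds RXR and PPAR gamma. The labels used here give no dose of either, so doses are not matched. All contrasts share the MDI arrays. Of all named genes 22.6% were called between MDI and ROSI, 1728 higher in MDI (11.7%) and 1604 lower (10.9%). Between MDI and TBT 30.1% were called, 2488 higher in MDI (16.9%) and 1955 lower (13.2%).

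Some strong responses to MDI far exceeded both agents. Camp had a mean log2 ratio of 1.84 ± 0.07 (SD, n = 3) in MDI, -1.07 ± 0.14 in DMSO, -1.39 ± 0.28 in ROSI and -0.51 ± 0.08 in TBT, so the difference was 3.23 ± 0.10 against ROSI and 2.35 ± 0.10 against TBT. Aldh1l1 stood at 1.96 ± 0.19 in MDI, -1.19 ± 0.27 in ROSI and -1.25 ± 0.15 in TBT. Wfdc21 exceeded ROSI by 3.10 ± 0.09 and TBT by 2.82 ± 0.09, and Hp by 3.36 ± 0.10 and 3.07 ± 0.10. Selenbp1 exceeded ROSI by 3.30 ± 0.11 and TBT by 3.31 ± 0.11, Retn by 2.91 ± 0.08 and 3.39 ± 0.08, Hsd11b1 by 2.58 ± 0.05 and 3.04 ± 0.05, Pygl by 2.59 ± 0.07 and 2.59 ± 0.07, and Klf15 by 2.22 ± 0.07 and 2.06 ± 0.07.

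Other genes were lower under MDI than under either agent. Fabp3, the fatty acid carrier typical of muscle and heart, stood at -2.76 ± 0.14 in MDI, -3.23 ± 0.54 in DMSO, 2.30 ± 0.18 in ROSI and 1.32 ± 0.16 in TBT. Its difference from DMSO (0.46 ± 0.18) was called in only 2 of 6 fits that left out an array and turned to -0.62 after quantile normalization, whereas it was -5.07 ± 0.18 against ROSI and -4.08 ± 0.18 against TBT. Chchd10 and Ephx2 rose against DMSO but stayed below both agents. Chchd10 differed by -1.49 ± 0.07 from ROSI and -0.86 ± 0.07 from TBT, and Ephx2 by -1.61 ± 0.10 and -0.85 ± 0.10. Cyp26b1 was -3.10 ± 0.09 against TBT and -1.33 ± 0.09 against ROSI. Ccl8, which fell below DMSO in MDI, was -2.53 ± 0.08 against ROSI. Ferroportin Slc40a1 was -0.95 ± 0.06 against ROSI and -1.61 ± 0.06 against TBT, and transferrin Trf was 1.90 ± 0.10 and 1.91 ± 0.10. Over the whole iron and metal list 7 of 37 were higher than in ROSI and 5 lower, and 9 higher than in TBT and 7 lower. The shares among all named genes were 11.7% and 10.9% against ROSI, and 16.9% and 13.2% against TBT.

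**Figure D5:**
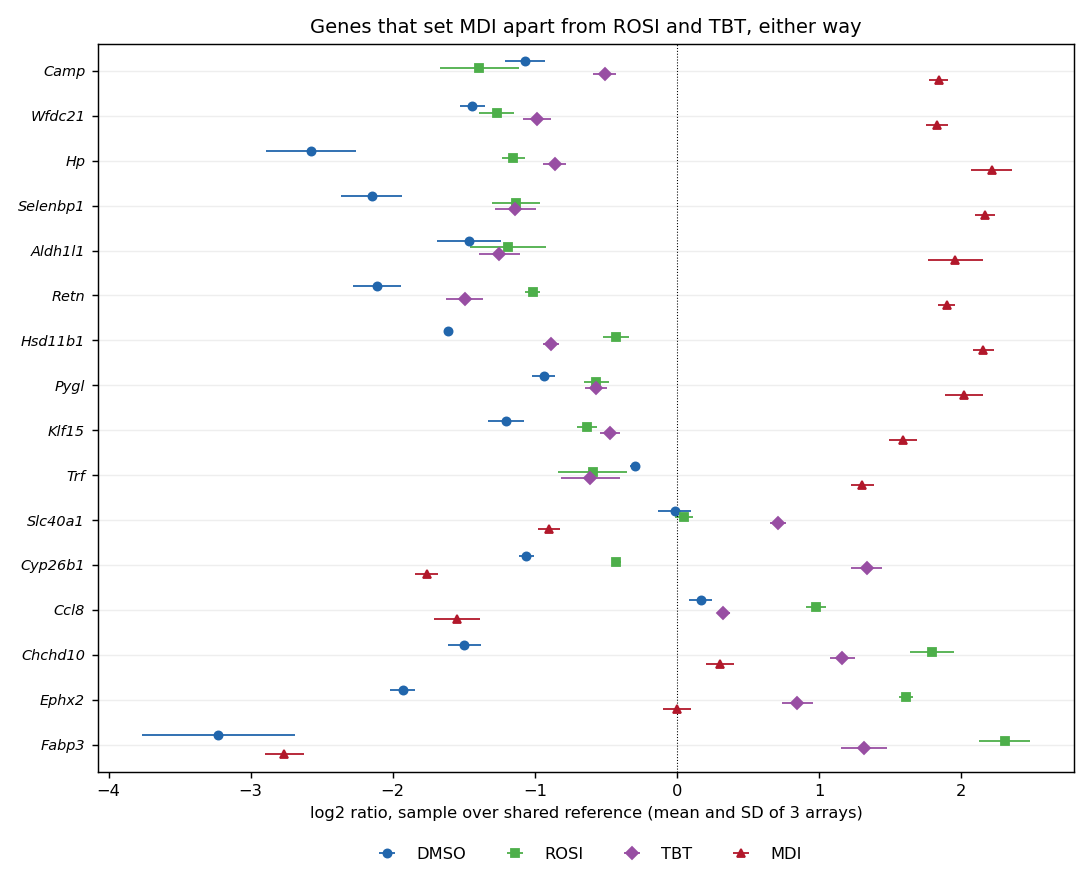
Mean log2 ratio of sample over reference with SD (n = 3 arrays) in DMSO, ROSI, TBT and MDI for 16 genes with large differences between MDI and both agents. The upper 10 genes from Camp to Trf lie highest in MDI, and the lower 6 from Slc40a1 to Fabp3 lie below both agents in MDI.

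List counts against the agents were not always like those against DMSO. Among all named genes 11.7% were higher and 10.9% lower than in ROSI, and 16.9% and 13.2% than in TBT. Of 75 mitochondrial ribosome genes 10 were higher than in ROSI and 7 lower, both near the shares of all genes, while 45 were higher than in TBT and 1 lower. Import and quality control genes were higher than in ROSI in 4 and lower in 11 of 57, and against TBT in 37 and 1. Carbonic anhydrases were higher than in ROSI in 7 of 15 cases and higher than in TBT in 7. Matricellular genes were lower than ROSI in 9 and lower than TBT in 11 of 18.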

How the data were processed

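The series holds 30 arrays with 2 colours in 10 groups of 3, of which the MDI and DMSO arrays were compared. The deposited values are log ratios of reference over sample for 23460 probes, made by the authors with limma per the submitters' processing notes; the base was read as log2 because the probe differences match those in the authors' deposited table, and the sign was turned so that higher means more RNA in the sample. Background correction and normalization are not given in the sources used here, and the adjusted p-values of the authors' deposited table were used for a count of probes alone. After 26 control probes were left out, 18966 probes had a symbol and were averaged into 14763 genes, and 4468 unnamed probes were kept as entries of their own. A mean per group was fitted to all 19231 entries with limma 3.58.1 (R 4.3.3), with moderated variances and Benjamini-Hochberg adjustment over all entries. An exact permutation test of 3 arrays against 3 cannot go below p = 0.1 and was not used. The lists and members were chosen with earlier results of these data known. Named genes are the 30 highest and 30 lowest, up to 5 called genes in each direction of each list, and all marker genes, with values against ROSI and TBT for genes so named. The Additional observations hold some genes chosen after their values were seen, and Slc2a1 and the promoters were chosen so too. Sequences come from RefSeq (GRCm38.p6), and 11687 genes had a promoter there. The fit was tested on simulated data. Alternatives were other normalizations, samples, probe summaries, a replicate block, array weights, thresholds and leaving out each array.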

Additional observations from a re-analysis of the deposited data

How the results depend on the processing

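The counts of genes called, whatever their fold, kept to within 1.5 times of their main values under the other settings apart from those named here. With at least a 2-fold change also required, MDI was higher than DMSO in 528 genes and lower in 75, higher than ROSI in 108 and lower in 28, and higher than TBT in 157 and lower in 39. Quantile normalization left 1057 genes higher than ROSI, and the cause was not tested. It also shrank rises and widened falls, leaving 211 genes at least 2-fold higher and 128 lower than DMSO. It turned 3 named genes, Fabp3 to -0.62, Nr4a1 to -0.044 and Pi16 to -0.18, and 38 others of 719 named genes lost their call. Leaving out 1 array gave 2920 to 3103 genes higher and 2526 to 2734 lower than DMSO, 1432 to 1626 and 1307 to 1418 against ROSI, and 2164 to 2338 and 1596 to 1755 against TBT, with fewer samples in each fit, and 22 to 42 named genes lost their call. Fitting the compared groups alone, which leaves fewer samples to estimate the spread, gave 2991 higher and 2640 lower than DMSO. Same-numbered MDI and DMSO arrays deviated together at correlations of -0.016, 0.097 and 0.048, so the numbers only name samples, and the replicate block gave 3231 higher and 2875 lower. Signal over background was not used, and the number of arrays limits the precision.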

Other observations

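Genes known to respond to low oxygen were looked at after values had been seen, so their counts are a description and support nothing. Of 40 such genes 35 were measured, and 28 were higher in MDI than in DMSO, 2 were lower and 5 did not pass, with a median log2 fold change of 1.22, against 21.9% higher and 19.6% lower among all named genes. Against ROSI 29 were higher and 1 lower, with 11.7% and 10.9% among all named genes. Against TBT 30 were higher and 2 lower, with 16.9% and 13.2% among all named genes. Many are glycolytic enzymes already counted above. Besides those, the oxygen-sensing prolyl hydroxylase Egln3 read -1.84, -1.70 and -1.53 in DMSO and 1.96, 2.08 and 2.13 in MDI. The mitophagy receptor Bnip3 (3.11 ± 0.09) read -1.43, -1.41 and -1.35 and 1.63, 1.69 and 1.81, with its 3 probes from 1.76 to 4.17. The mitochondrial proteins Fam162a (2.57 ± 0.07) and Higd1a (1.86 ± 0.07), the adenylate kinase Ak4 (2.04 ± 0.08), the pyruvate dehydrogenase kinase Pdk1 (1.57 ± 0.10) and the oxidoreductase Ero1a (1.63 ± 0.07) rose as well. Adm (-0.49 ± 0.06) and Lox (-0.80 ± 0.07), which belong to the same group, fell, and Kdm3a (0.10 ± 0.07) and Slc2a1 (-0.15 ± 0.13) did not pass.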
